A study of Mus musculus with 308 samples.

Results

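The genes described here mark macrophages, dendritic cells and neutrophils, the phagocytes of the innate immune system. A list of 40 mouse genes was used, and a member's probe sets were those that carry its symbol and no other in the platform's gene table. Of the 40, 38 had such a probe set, out of 17097 genes with at least 1 on the array, and the neutrophil gene Retnlg and the dendritic cell gene Clec9a had none. The choice of members used no expression value of a treatment group, but it was made with earlier results of these data known.

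Expression was measured on 308 Affymetrix HT MG-430 PM arrays of spleen, mesenteric lymph node, inguinal lymph node, blood, jejunum, kidney and brain from C57BL/6 mice. In the fumarate and vehicle groups doses were given once daily for 10 days, and tissue was collected 12 h after the last dose. The groups were DMF100, dosed with dimethyl fumarate (DMF) at 100 mg/kg, DMF179.2, dosed with 179.2 mg/kg of it, monoethyl fumarate (MEF) as its calcium, magnesium and zinc salts at 79.2 mg/kg (MEF79.2), DMF at 100 mg/kg together with MEF salts at 79.2 mg/kg (the combination), a group labelled Nav that the labels do not explain, and the vehicle group (VEH), which received 0.8% hydroxypropyl methylcellulose. DMF and MEF are esters of fumarate. DMF carries a methyl group on each end and MEF an ethyl group on 1 end, and DMF179.2 and the combination have the same total mass. The groups held 5 to 8 arrays per tissue. The labels do not tie arrays to animals, so the p-values below measure the spread between arrays.

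Macrophages are long-lived phagocytes that settle in every tissue and differ between tissues in the receptors they carry. Those of the lymph node sinuses and the splenic marginal zone take up particles from lymph and blood through scavenger receptors and C-type lectins of the CD209 family, while dendritic cells carry antigen to T cells. Neutrophils are short-lived, fill their granules with antimicrobial proteins while they mature in marrow and spleen, and circulate in blood. In whole tissue, fewer cells of a type and less RNA per cell cannot be told apart.

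All values are log2 expression values as deposited, and each difference is a log2 fold change ± its standard error, from a limma fit to that tissue. A gene was tested in a tissue where its probe set lay above the median of all values in at least 5 arrays, and a call required a p under 0.05 after Benjamini-Hochberg adjustment over all genes tested. Each member's level can be set against its own level in other groups of the same tissue, not against another member's or another tissue's.

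The promoters of Tnfaip2, Cd209f and Cd209g are shown because these genes had the largest or most widespread called increases among the members under a fumarate against vehicle. They come from RefSeq (build GRCm38.p6), which held a promoter, 250 bases before to 50 bases after the start, for 33 of the 40 members and for 13 of the 18 members called against vehicle. The sequences run 5′ to 3′ on the gene's strand. Capitals mark matches, on either strand, to the core of the antioxidant response element (TGACNNNGC), which is bound by the factor NRF2, or to the AP-1 site (TGANTCA).
Tnfaip2, chr12:111442411-111442710, plus strand: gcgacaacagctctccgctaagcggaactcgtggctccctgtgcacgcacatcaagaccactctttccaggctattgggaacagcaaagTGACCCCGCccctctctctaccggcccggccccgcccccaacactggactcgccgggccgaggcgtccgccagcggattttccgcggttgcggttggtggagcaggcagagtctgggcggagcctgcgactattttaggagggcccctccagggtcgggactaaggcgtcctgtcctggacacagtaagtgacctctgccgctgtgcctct
Cd209f, chr8:4105715-4106014, minus strand: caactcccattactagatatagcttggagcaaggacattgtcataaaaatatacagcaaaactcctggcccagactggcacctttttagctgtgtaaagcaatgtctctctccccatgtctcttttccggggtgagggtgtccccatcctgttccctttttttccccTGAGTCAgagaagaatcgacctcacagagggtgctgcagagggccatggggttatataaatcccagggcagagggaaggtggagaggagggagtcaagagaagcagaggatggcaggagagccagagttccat
Cd209g, chr8:4134486-4134785, plus strand: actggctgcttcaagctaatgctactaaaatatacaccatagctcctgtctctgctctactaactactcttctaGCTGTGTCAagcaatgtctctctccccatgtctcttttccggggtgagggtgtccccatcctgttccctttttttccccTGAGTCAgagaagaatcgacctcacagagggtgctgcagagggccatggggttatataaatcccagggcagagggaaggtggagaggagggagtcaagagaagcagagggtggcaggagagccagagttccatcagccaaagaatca

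The Tnfaip2 match to the antioxidant response element core lies 161 to 153 bases before the start. Cd209g has a match on the opposite strand 176 to 168 bases before its start and an AP-1 match 97 to 91 bases before it, and Cd209f has the AP-1 match 83 to 77 bases before its start. The Cd209f and Cd209g promoters share an identical run of 180 bases, while the other pairs of CD209 promoters share at most 17. Such matches are common. The antioxidant response element core occurs in 8 of the 33 member promoters and in 12.39% of 32851 promoters in the table, and the AP-1 site in 4 of 33 and in 7.808%. Neither shows binding in these samples. The core of the site for PU.1, the factor that directs myeloid development (GAGGAA), was found in 16 of 33 member promoters and in 28.28% of all promoters. The NF-kB site occurs in 1 of 33, that of Marco, and in 1.629% of all. The motifs were searched separately, and matches to different motifs did not share bases in the promoters shown.

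The number of members whose probe set passed the filter followed the tissue. Of the 38, 29 were tested in spleen, 24 in mesenteric node, 29 in inguinal node, 22 in blood, 13 in jejunum, 13 in kidney and 11 in brain. Csf1r, Cd68, Mrc1, Lyz2 and Mpeg1 passed in every tissue, and the Kupffer cell receptors Clec4f and Vsig4, the integrin subunit Itgam and the dendritic cell receptor Xcr1 in no tissue. Itgam was read from 1 probe set, with a mean of 3.25 in blood and 2.12 in spleen. Whether that probe set detects its transcript was not tested, so not passing does not show that a gene is not expressed. Members of both cell kinds did not pass in each tissue alike. In mesenteric node the neutrophil genes Ngp, Camp, Ltf, Mmp8, Elane, Mpo, Csf3r and Cxcr2 did not pass, and in blood the C1q genes, Marco, Siglec1, Cd5l and Timd4 did not. Of the dendritic cell genes, only Itgax was tested.

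Across the 7 tissues and the 5 groups other than vehicle, Nav among them, there were 705 tests of members against vehicle, and 50 were called. That is 7.09% of the member tests, near the 8.2% called over all genes and the same contrasts. The fumarate contrasts called 6.74% of member tests and 5.74% of all tests, and Nav 8.51% of member tests and 18% of all tests. The fumarate groups gave 38 calls from 14 members, of which 31 were increases and 7 decreases, and Nav gave 12 calls, all increases. Tnfaip2 alone gave 9 calls in 5 tissues, Cd68 6 in 3 tissues and Mmp9 5 in 2 tissues.

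**Figure D1:**
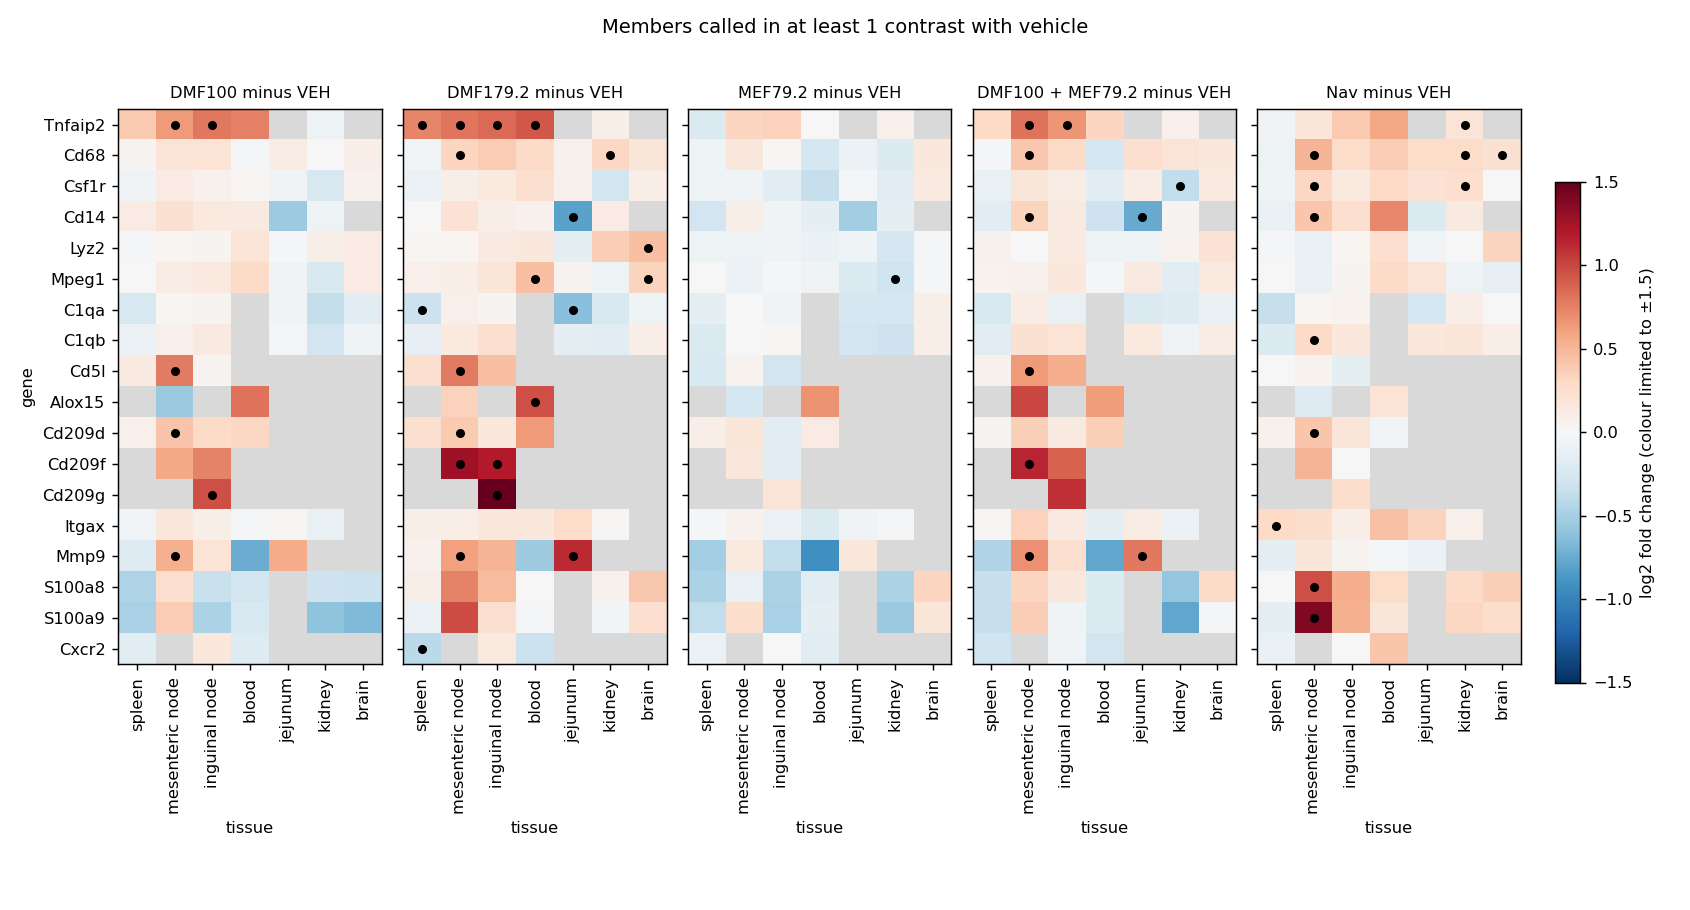
Log2 fold change (colour) of the 18 members called in at least 1 contrast, by gene (rows) and tissue (columns), with a panel for each group minus vehicle. Black dots mark calls at adjusted p under 0.05, grey cells were not tested, and colour is limited to ±1.5; Tnfaip2 carries 9 dots.

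In mesenteric node (8 DMF100, 8 DMF179.2, 7 MEF79.2, 6 combination, 7 Nav and 8 vehicle arrays), every called member rose. DMF100 gave 4 calls of 24 members, where 1.85% of all genes tested were called. DMF179.2 gave 6 (7.88% of all genes), the combination 6 (12.7%) and Nav 7 (50.6%), and MEF79.2 gave 0 in limma (4.75%; 3 members had an unadjusted p under 0.05). Of the 24 members, 23 had positive differences under DMF179.2, with a median of 0.20 against 0.02 for all genes, and 23 under the combination, with a median of 0.31 against 0.06. Under MEF79.2 the member median was 0.00 and 13 of 24 were positive.

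In inguinal node (8, 6, 6, 8, 8 and 8 arrays in the same order of groups), the called members also all rose. There were 2 calls of 29 under DMF100 (1.69% of all genes), 3 with DMF179.2 (0.379%), 1 with the combination (0.0474%), and 0 under MEF79.2 (0.00947%) and Nav (0.0189%). At an unadjusted p under 0.05 there were 7 members under MEF79.2 and 2 under Nav. The median member difference was 0.17 under DMF179.2, where 27 of 29 were positive, against 0.03 for all genes.

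In spleen (8, 8, 7, 8, 8 and 8 arrays), DMF179.2 gave 3 calls of 29, 1 up and 2 down, where 24.4% of all genes were called. Nav gave 1 call, an increase (13.4% of all genes). DMF100 (0.834%), MEF79.2 (0%) and the combination (0.0284%) gave 0 calls each, with 2 members each at an unadjusted p under 0.05. In blood (7, 8, 5, 6, 5 and 7 arrays), DMF179.2 gave 3 increases of 22 (1.34% of all genes). DMF100 (0.26%), MEF79.2 (0%), the combination (0%) and Nav (0.0193%) gave 0, with 7, 3, 2 and 8 members at an unadjusted p under 0.05. The median blood difference was 0.31 under DMF179.2 and 0.33 under Nav, against 0.02 and 0.00 for all genes.

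In jejunum (6, 7, 7, 8, 7 and 8 arrays), DMF179.2 gave 3 calls of 13, 1 up and 2 down (27.4% of all genes), and the combination 1 up and 1 down (3.84%). DMF100 (0.996%), MEF79.2 (0.111%) and Nav (7.87%) gave 0 calls, with 2 members each at an unadjusted p under 0.05. In kidney (8, 8, 7, 8, 8 and 7 arrays), DMF179.2 gave 1 increase of 13 (16.7%), MEF79.2 1 decrease (14.2%), the combination 1 decrease (30.3%) and Nav 3 increases (49.8%), while DMF100 gave 0 (8.09%; 4 members at an unadjusted p under 0.05). In brain (7, 8, 7, 8, 8 and 8 arrays), DMF179.2 gave 2 increases of 11 (1.09%) and Nav 1 (3.83%). DMF100 (0.4%), MEF79.2 (0.362%) and the combination (0.297%) gave 0 there, with 1, 3 and 5 members at an unadjusted p under 0.05.

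Tnfaip2, a gene induced by tumour necrosis factor in myeloid and endothelial cells and linked to membrane protrusions, rose in mesenteric node, inguinal node, spleen and blood under DMF179.2. In mesenteric node its lowest, median and highest values were 6.78, 6.93 and 7.45 under DMF100, 7.02, 7.22 and 7.41 under DMF179.2, 6.40, 6.78 and 7.12 under MEF79.2, 6.95, 7.23 and 7.50 under the combination, 6.24, 6.65 and 6.90 under Nav, and 6.01, 6.45 and 6.75 under vehicle. Every DMF100, DMF179.2 and combination array lay above every vehicle array, and the MEF79.2 and Nav arrays overlapped them. The increases were 0.64 ± 0.11 under DMF100 (adjusted p = 0.000684), 0.81 ± 0.11 under DMF179.2 (1.38e-05), a 1.75-fold change, and 0.81 ± 0.12 under the combination (7.3e-05). Under MEF79.2 the difference was 0.32 ± 0.12 (adjusted p = 0.0863). Between DMF179.2 and the combination, which have equal total mass, Tnfaip2 differed by 0.00 with a 95% interval of -0.25 to 0.24, and between DMF179.2 and DMF100 by 0.16 with an interval of -0.06 to 0.39.

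In inguinal node Tnfaip2 values were 6.77, 7.09 and 7.52 under DMF100, 7.07, 7.16 and 7.45 under DMF179.2, 6.06, 6.83 and 6.94 under MEF79.2, 6.54, 7.05 and 7.34 under the combination, 6.41, 6.69 and 7.21 under Nav, and 6.06, 6.36 and 6.58 under vehicle. All DMF100 and DMF179.2 arrays and 7 of 8 combination arrays exceeded the highest vehicle array. The differences were 0.79 ± 0.12 (adjusted p = 0.000105), 0.85 ± 0.13 (0.000114) and 0.67 ± 0.12 (0.00378) for DMF100, DMF179.2 and the combination. MEF79.2 gave 0.35 ± 0.13 (adjusted p = 0.288) and Nav 0.39 ± 0.12 (0.205). Hybridisation controls, spiked transcripts that report on array processing, ranged in inguinal node from 11.81 to 11.90 under DMF179.2 and from 11.77 to 11.98 under the combination, against 11.91 to 12.10 under vehicle, so DMF179.2 and vehicle arrays did not overlap. With these controls as a covariate the Tnfaip2 differences under DMF100 and DMF179.2 were still called, and that under the combination was not (0.66, adjusted p = 0.0738).

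In spleen, Tnfaip2 values were 7.49, 7.73 and 8.26 under DMF100, 7.82, 8.11 and 8.56 under DMF179.2, 6.99, 7.08 and 7.60 under MEF79.2, 7.48, 7.72 and 7.98 under the combination, 6.65, 7.21 and 8.61 under Nav, and 6.96, 7.29 and 8.23 under vehicle. The DMF179.2 and vehicle arrays overlapped, with 3 of 8 DMF179.2 arrays above the highest vehicle array, and the increase was 0.74 ± 0.19 (adjusted p = 0.00569). Erythroid precursor genes rose in the same samples: 11 of 16 tested were called up under DMF179.2, where 24.4% of all genes were called, and their mean level per array was 9.40, 9.71 and 10.62 under DMF179.2 and 6.56, 8.30 and 10.09 under vehicle. Their part in the Tnfaip2 result was not tested.

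Blood values of Tnfaip2 were 5.63, 5.92 and 6.92 under DMF100, 5.69, 6.33 and 6.87 under DMF179.2, 5.09, 5.47 and 5.63 under MEF79.2, 5.41, 5.72 and 5.90 under the combination, 5.13, 5.87 and 7.23 under Nav, and 4.89, 5.32 and 5.77 under vehicle. Among the DMF179.2 arrays 7 of 8 exceeded the highest vehicle array, and the increase was 0.93 ± 0.21 (adjusted p = 0.0178). DMF100 gave 0.76 ± 0.22 (adjusted p = 0.112). The DMF179.2 response did not pass a test for a difference among spleen, both nodes and blood (F test, adjusted p = 0.888, where 6.98% of all genes passed). In kidney Tnfaip2 rose under Nav by 0.20 ± 0.08 (adjusted p = 0.0324), with values of 7.71, 7.77 and 7.97 under Nav and 7.37, 7.60 and 7.95 under vehicle. Only 1 Nav array lay above the vehicle range. Without the Nav array numbered 40, described with the neutrophil genes, this kidney call was lost.

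**Figure D2:**
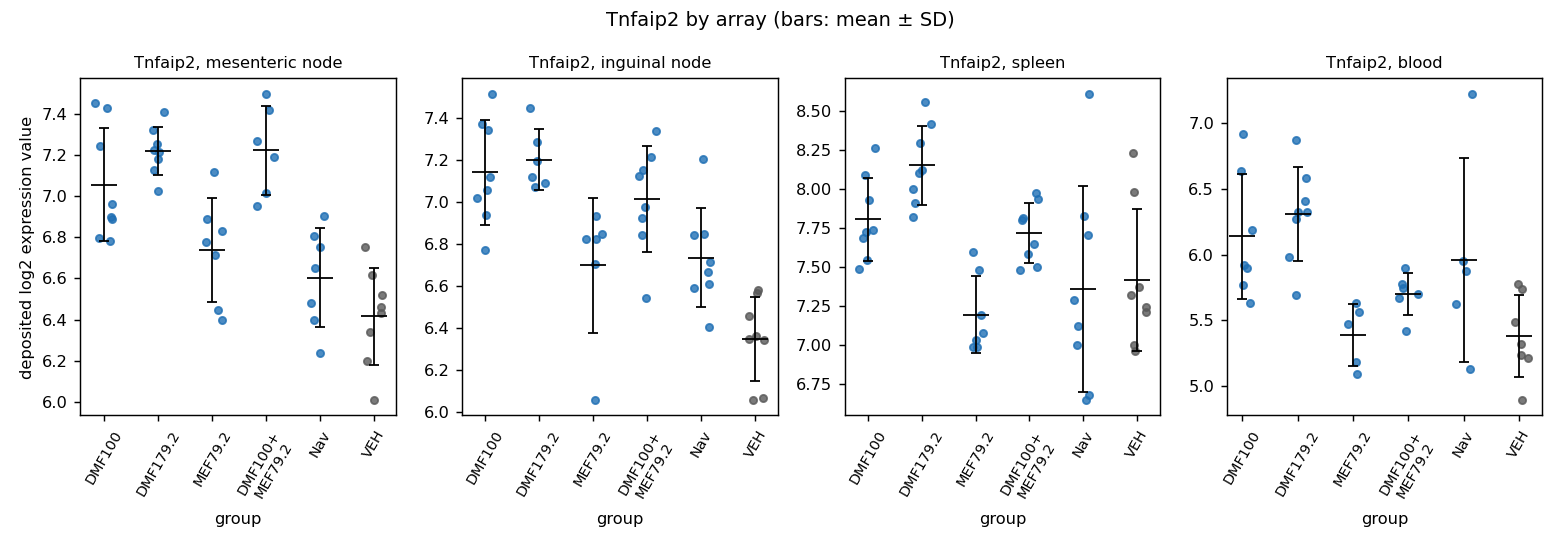
Deposited log2 value of Tnfaip2 (vertical axis) in each array (points) of the 6 groups, in mesenteric node, inguinal node, spleen and blood, with bars for the mean ± SD. In mesenteric node the DMF100, DMF179.2 and combination points all lie above the vehicle points, whose highest is 6.75.

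Cd68, a lysosomal glycoprotein of macrophages, rose in mesenteric node, kidney and brain. Its mesenteric values were 9.96, 10.27 and 10.50 under DMF100, 10.23, 10.37 and 10.46 under DMF179.2, 10.04, 10.24 and 10.37 under MEF79.2, 10.33, 10.44 and 10.57 under the combination, 10.33, 10.51 and 10.70 under Nav, and 9.66, 10.02 and 10.30 under vehicle. The combination and Nav arrays all exceeded the vehicle arrays. The increases were 0.32 ± 0.08 under DMF179.2 (adjusted p = 0.00855), 0.41 ± 0.08 under the combination (0.00194) and 0.50 ± 0.08 under Nav (1.39e-06), and DMF100 gave 0.19 ± 0.08 (0.192). In kidney the values were 6.49, 6.68 and 6.90 under DMF179.2, 6.36, 6.60 and 7.12 under Nav, and 5.97, 6.38 and 6.80 under vehicle. The kidney groups overlapped, and the increases were 0.31 ± 0.10 under DMF179.2 (adjusted p = 0.0297) and 0.28 ± 0.10 under Nav (0.0184). In brain it rose by 0.23 ± 0.06 under Nav (adjusted p = 0.0334), with values of 8.0, 8.06 and 8.26 under Nav and 7.61, 7.88 and 8.04 under vehicle.

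Cd14, the co-receptor that hands bacterial lipopolysaccharide to TLR4, differed in direction between tissues. In mesenteric node it rose under the combination (7.09, 7.51 and 7.69) and Nav (7.06, 7.63 and 7.83), against 6.95, 7.13 and 7.28 under vehicle, by 0.34 ± 0.11 (adjusted p = 0.0344) and 0.42 ± 0.10 (0.000843). Both groups overlapped the vehicle range. In jejunum it fell, with values of 5.72, 6.20 and 6.66 under DMF100, 5.11, 5.92 and 6.74 under DMF179.2, 5.25, 6.17 and 6.95 under MEF79.2, 5.61, 5.85 and 6.69 under the combination, 5.58, 6.57 and 7.20 under Nav, and 6.19, 6.83 and 7.21 under vehicle. The jejunal differences were -0.80 ± 0.23 under DMF179.2 (adjusted p = 0.0101) and -0.76 ± 0.23 under the combination (0.0469). In these groups 5 of 7 and 6 of 8 arrays lay below the lowest vehicle array. DMF100 and MEF79.2 gave -0.54 ± 0.24 and -0.53 ± 0.23 (adjusted p = 0.419 and 0.338).

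Csf1r encodes the receptor for the growth factor on which most macrophages depend. In kidney it fell under the combination, with values of 5.93, 6.38 and 6.75 under the combination and 6.60, 6.72 and 6.93 under vehicle, by 0.37 on the log2 scale (-0.37 ± 0.10, adjusted p = 0.00668). Of the combination arrays 5 of 8 lay below the vehicle range. All 8 DMF100 arrays (6.29, 6.54 and 6.59) lay below the vehicle range too, but that difference, -0.24 ± 0.10, was not called (adjusted p = 0.159). So did 7 of 8 DMF179.2 arrays and 5 of 7 MEF79.2 arrays. Csf1r differed there by -0.28 ± 0.10 and -0.17 ± 0.11 (adjusted p = 0.063 and 0.304), and neither was called. Under Nav it rose by 0.25 ± 0.10 in kidney (6.77, 6.97 and 7.27; adjusted p = 0.0457) and by 0.30 ± 0.11 in mesenteric node (adjusted p = 0.0216), where values were 9.12, 9.49 and 9.58 under Nav and 8.83, 9.19 and 9.27 under vehicle. The Nav ranges overlapped those of vehicle in both tissues. The kidney Nav call was lost without Nav array 40.

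Mpeg1, a pore-forming protein of phagocytes (perforin-2), and Lyz2, the macrophage lysozyme, rose in brain under DMF179.2. Mpeg1 values there were 7.98, 8.05 and 8.24 under DMF100, 8.10, 8.31 and 8.47 under DMF179.2, 7.71, 7.96 and 8.19 under MEF79.2, 7.84, 8.15 and 8.28 under the combination, 7.68, 7.79 and 8.05 under Nav, and 7.77, 8.01 and 8.13 under vehicle. The DMF179.2 increase was 0.34 ± 0.07 (adjusted p = 0.0063), with 7 of 8 arrays above the vehicle range. Lyz2 in brain had 8.17, 8.55 and 8.77 under DMF179.2 and 7.61, 8.11 and 8.36 under vehicle, with 7 of 8 DMF179.2 arrays above the vehicle range and a difference of 0.45 ± 0.10 (adjusted p = 0.0196). This Lyz2 call was lost with hybridisation controls as a covariate and when only the groups compared were fitted. Brain markers of neurons and glia had a mean level of 11.20, 11.30 and 11.34 under DMF179.2 and 11.28, 11.32 and 11.37 under vehicle, and those of endothelium 8.37, 8.41 and 8.54 against 8.22, 8.33 and 8.44 under vehicle. Their part in the result was not tested.

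In blood Mpeg1 rose under DMF179.2 by 0.45 ± 0.12 (adjusted p = 0.0431), with values of 10.56, 10.98 and 11.22 under DMF179.2 and 10.14, 10.48 and 10.82 under vehicle, ranges that overlapped. In kidney it fell under MEF79.2 by 0.30 on the log2 scale (-0.30 ± 0.10, adjusted p = 0.0386), with 7.16, 7.29 and 7.53 under MEF79.2 and 7.40, 7.57 and 7.87 under vehicle. There 6 of 7 MEF79.2 arrays lay below the vehicle range. Lyz2 differences in the other 6 tissues under DMF179.2 lay between -0.13 and 0.37, and 0 were called in limma. Of these, 2, in jejunum and kidney, had adjusted p = 0.0667 and 0.0603. Lyz2 was read from 1 probe set, which in jejunum stood at percentile 99.99 of that tissue. Whether it reads Lyz2 alone there was not tested, so the jejunal value is uncertain to that degree.

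The 5 members tested in every tissue were set in an F test of whether the DMF179.2 response differed among the 7 tissues, in which 34% of 7849 genes passed. Lyz2 (adjusted p = 0.00196), Mpeg1 (0.00327) and Mrc1 (0.03) passed, and Csf1r (0.107) and Cd68 (0.377) did not. Among spleen, both nodes and blood, 14 members were tested, and Mmp9 (adjusted p = 0.00836) and Mpeg1 (0.0341) passed.

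CD209 lectins bind glycans on microbes, and in mouse the family has several closely related genes, so their probe sets may share signal and each value is uncertain to that degree. Cd209f and Cd209g had the largest called increases of any member under a fumarate against vehicle. Cd209f rose in both nodes, and Cd209g rose in inguinal node, the only tissue where it was tested. In inguinal node Cd209g values were 5.23, 6.35 and 7.23 under DMF100, 6.72, 6.79 and 7.37 under DMF179.2, 4.92, 5.49 and 6.05 under MEF79.2, 5.45, 6.30 and 7.20 under the combination, 4.56, 5.53 and 6.30 under Nav, and 4.16, 5.54 and 5.66 under vehicle. The 6 DMF179.2 arrays all lay above the vehicle arrays, as did 7 of 8 under DMF100 and 7 of 8 under the combination. The increase was 1.62 ± 0.27 under DMF179.2 (adjusted p = 0.000635), or 3.08-fold, and 0.97 ± 0.25 under DMF100 (0.0332). The combination gave 1.10 ± 0.25 (adjusted p = 0.0643). DMF179.2 exceeded DMF100 by 0.65, with a 95% interval of 0.11 to 1.19 that leaves out 0, but the difference was not called (adjusted p = 0.519).

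Cd209f in inguinal node had 7.60, 8.57 and 9.15 under DMF100, 8.64, 8.88 and 9.08 under DMF179.2, 6.97, 7.62 and 7.84 under MEF79.2, 7.84, 8.57 and 9.31 under the combination, 7.05, 7.67 and 8.31 under Nav, and 6.55, 7.83 and 8.13 under vehicle. DMF179.2 arrays again did not overlap vehicle, and the increase was 1.19 ± 0.23 (adjusted p = 0.00538). DMF100 gave 0.74 ± 0.21 (adjusted p = 0.0577) and the combination 0.88 ± 0.21 (0.0959). Vehicle array 3 was the lowest vehicle array for both lectins.

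In mesenteric node Cd209f had 5.61, 5.85 and 6.16 under DMF100, 5.70, 6.51 and 7.61 under DMF179.2, 4.70, 5.56 and 5.97 under MEF79.2, 5.91, 6.36 and 7.21 under the combination, 5.29, 5.60 and 6.57 under Nav, and 4.85, 5.12 and 5.91 under vehicle. The ranges overlapped, with 6 of 8 DMF179.2 arrays and 5 of 6 combination arrays above every vehicle array. The increases were 1.27 ± 0.23 under DMF179.2 (adjusted p = 0.000689) and 1.14 ± 0.24 under the combination (0.00351), and DMF100 gave 0.58 ± 0.23 (0.198). DMF179.2 exceeded DMF100 by 0.69 ± 0.23, with a 95% interval of 0.23 to 1.14, which was not called (adjusted p = 0.0926).

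Cd209d, a CD209 lectin of sinus and marginal zone macrophages, rose in mesenteric node under DMF100 by 0.43 ± 0.12 (adjusted p = 0.0477), under DMF179.2 by 0.40 ± 0.12 (0.0351) and under Nav by 0.42 ± 0.12 (0.00491). Its values were 7.51, 8.07 and 8.55 under DMF100, 7.72, 7.98 and 8.46 under DMF179.2, 7.89, 8.05 and 8.21 under Nav, and 7.22, 7.57 and 8.02 under vehicle, with overlap in each case. The DMF179.2 call was lost without array 23 of that group, which had the lowest correlation with the other mesenteric arrays. Cd209b, the most used marker of marginal zone macrophages in the family, was not called. In inguinal node its DMF179.2 difference was 0.01 ± 0.11, and in mesenteric node its DMF100 difference was 0.28 ± 0.09 (adjusted p = 0.0879).

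Cd5l, a protein that resident macrophages secrete and that protects them from apoptosis, rose in mesenteric node. Values were 9.44, 10.16 and 10.36 under DMF100, 9.78, 9.96 and 10.27 under DMF179.2, 8.92, 9.29 and 9.56 under MEF79.2, 9.48, 9.79 and 10.65 under the combination, 8.39, 9.38 and 10.00 under Nav, and 8.25, 9.19 and 10.00 under vehicle. The vehicle arrays spread widely and overlapped all groups. The differences were 0.78 ± 0.19 under DMF100 (adjusted p = 0.0219), 0.78 ± 0.19 with DMF179.2 (0.0104) and 0.64 ± 0.21 with the combination (0.0373). MEF79.2 gave 0.05 ± 0.20 and Nav 0.05 ± 0.20.

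**Figure D3:**
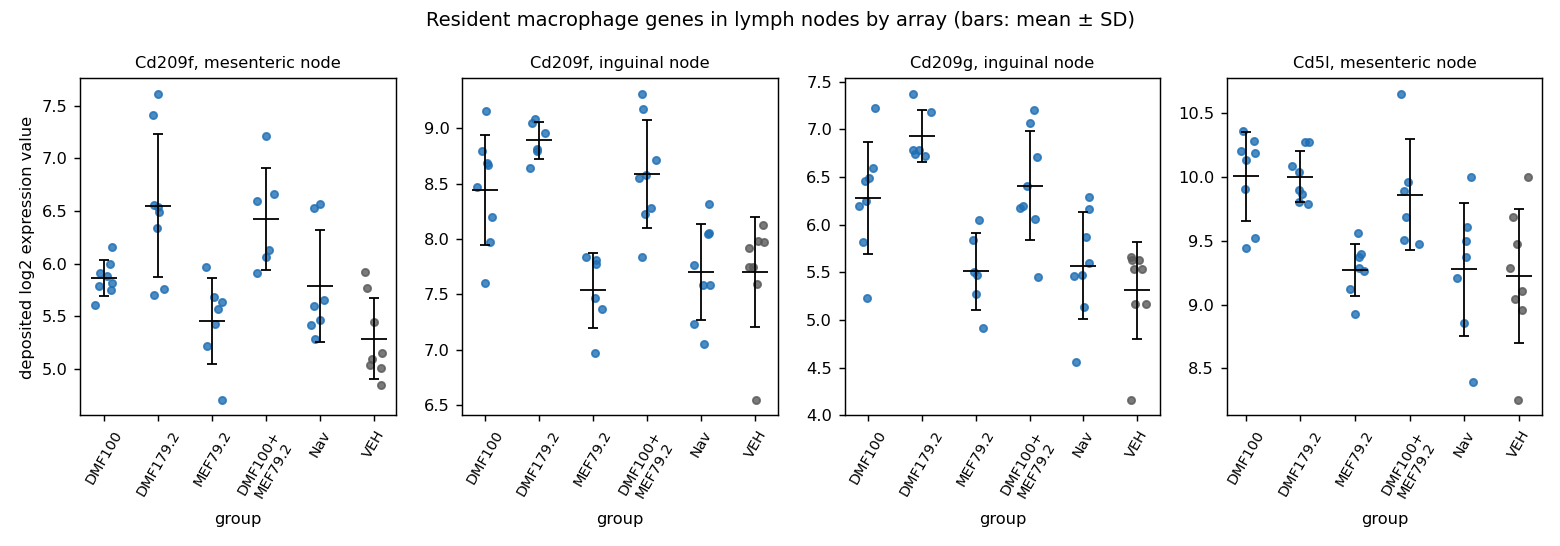
Deposited log2 value (vertical axis) in each array (points) of the 6 groups for Cd209f in mesenteric and inguinal node, Cd209g in inguinal node and Cd5l in mesenteric node, with bars for the mean ± SD. The 6 inguinal DMF179.2 points lie above all vehicle points for Cd209f and Cd209g, and the vehicle points of Cd5l reach from 8.25 to 10.00.

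Other receptors of sinus and marginal zone macrophages were not called in mesenteric node under any group. Marco, a scavenger receptor, had 12.34, 12.53 and 12.64 under DMF179.2 and 12.34, 12.41 and 12.65 under vehicle, and Mrc1, the mannose receptor, had 10.37, 10.63 and 10.72 under DMF179.2 and 10.09, 10.49 and 10.61 under vehicle. Siglec1, the sialic acid receptor of sinus macrophages, had 6.43, 6.80 and 7.10 under DMF179.2 and 6.75, 6.98 and 7.15 under vehicle. All 3 pairs of ranges overlapped. Calls like those of Tnfaip2, Cd209f and Cd5l were thus not made for every macrophage gene of the node. Whether the responses of these genes differ from each other was not tested.

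Other cells of the node were measured beside these genes. In mesenteric node under DMF179.2, 4 of 12 B cell genes fell and 0 rose. Of all 10671 genes tested there, 7.88% were called, 656 up and 185 down. The mean level of the B cell genes was 9.77, 10.61 and 10.77 under DMF179.2 and 10.54, 10.84 and 10.93 under vehicle. T and NK cell genes stood at 9.44, 9.57 and 9.73 under DMF179.2 and 9.37, 9.55 and 9.73 under vehicle. Adipocyte genes, which mark fat around the node, stood at 10.35, 10.99 and 11.49 under DMF179.2 and 9.68, 10.49 and 11.36 under vehicle. In inguinal node 1 of 6 mast cell genes rose under DMF179.2 (0.379% of all genes called), and their mean level was 7.25, 7.95 and 8.51 under DMF179.2 and 6.72, 7.21 and 7.52 under vehicle. The part of these cells in the nodal results was not tested.

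Alox15, a lipoxygenase of resident macrophages and eosinophils, rose in blood under DMF179.2. Its blood values were 4.55, 4.92 and 5.16 under DMF100, 4.34, 5.16 and 5.36 under DMF179.2, and 3.13, 4.12 and 4.85 under vehicle. The ranges overlapped, and the DMF179.2 difference was 0.96 ± 0.21 (adjusted p = 0.0177). In mesenteric node it gave 1 of 2 calls among 423 direct tests between fumarate groups. Those tests called 2.34% of all tests over genes and tissues for DMF179.2 against DMF100, 2.44% for DMF179.2 against the combination and 3.43% for the combination against DMF100. The combination exceeded DMF100 by 1.56 ± 0.38 (adjusted p = 0.00998, where 8.81% of all genes in that tissue were called), with values of 5.25, 5.92 and 7.08 under the combination and 3.88, 4.58 and 5.24 under DMF100, which did not overlap. Vehicle arrays had 4.27, 5.05 and 6.16 and overlapped both groups, and the combination differed from them by 1.01 ± 0.38 (adjusted p = 0.0693). These levels are low, and the filter stood at 5.24 in this tissue.

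The first component of complement, C1q, is made mainly by macrophages from the genes C1qa, C1qb and C1qc. In jejunum C1qa had 7.24, 7.40 and 7.71 under DMF100, 6.31, 6.82 and 7.45 under DMF179.2, 6.95, 7.30 and 7.73 under MEF79.2, 7.06, 7.24 and 7.65 under the combination, 6.84, 7.35 and 7.44 under Nav, and 7.40, 7.51 and 7.72 under vehicle. Of the DMF179.2 arrays 6 of 7 lay below all vehicle arrays. C1qa fell under DMF179.2, by -0.63 ± 0.13 against vehicle (adjusted p = 0.000488) and by -0.57 ± 0.14 against DMF100 (0.00801), the other direct call, where 11.6% of all genes in the tissue were called. The partner genes were not called, with -0.15 ± 0.20 for C1qb (adjusted p = 0.613) and -0.07 ± 0.12 for C1qc (0.707).

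In spleen C1qa fell under DMF179.2 as well, with values of 9.37, 9.56 and 10.04 under DMF179.2 and 9.71, 9.95 and 10.27 under vehicle and a difference of -0.32 ± 0.12 (adjusted p = 0.0461). Those ranges overlapped. In mesenteric node C1qb rose under Nav by 0.29 ± 0.10 (adjusted p = 0.0157), with values of 9.99, 10.27 and 10.63 under Nav and 9.56, 10.08 and 10.26 under vehicle, and the call was lost without Nav array 40 (0.23, adjusted p = 0.0536).

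Mmp9, the gelatinase of neutrophil granules, which macrophages also make, rose in mesenteric node and jejunum. Its mesenteric values were 6.55, 6.77 and 7.33 under DMF100, 6.47, 6.93 and 7.38 under DMF179.2, 6.30, 6.46 and 6.68 under MEF79.2, 6.80, 6.99 and 7.21 under the combination, 6.28, 6.48 and 6.76 under Nav, and 6.18, 6.35 and 6.41 under vehicle. The DMF100, DMF179.2 and combination arrays did not overlap vehicle. The increases were 0.53 ± 0.11 (adjusted p = 0.00532), 0.62 ± 0.11 (0.000633) and 0.68 ± 0.12 (0.000561), and MEF79.2 gave 0.14 ± 0.11.

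In jejunum Mmp9 had 6.87, 7.03 and 7.73 under DMF100, 7.24, 7.59 and 8.37 under DMF179.2, 6.15, 6.76 and 7.22 under MEF79.2, 6.80, 7.31 and 8.34 under the combination, 6.02, 6.33 and 6.99 under Nav, and 6.27, 6.61 and 7.13 under vehicle. All 7 DMF179.2 arrays and 4 of 8 combination arrays exceeded the vehicle range. The increases were 1.12 ± 0.20 under DMF179.2 (adjusted p = 0.000113) and 0.80 ± 0.19 under the combination (0.0171), and DMF100 gave 0.56 ± 0.21 (0.283). A second Mmp9 probe set gave smaller DMF179.2 differences, 0.45 ± 0.15 in jejunum and 0.35 ± 0.08 in mesenteric node. In blood Mmp9 was not called, at -0.53 ± 0.33 under DMF179.2 and -0.92 ± 0.37 under MEF79.2 (adjusted p = 0.441 and 0.356).

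In jejunum the hybridisation controls averaged 11.86 under DMF179.2, 11.83 under the combination and 12.00 under vehicle. Neither group overlapped vehicle (11.78 to 11.95 and 11.76 to 11.87, against 11.97 to 12.03), nor did DMF100 or Nav. With these controls as a covariate the DMF179.2 calls of Mmp9, Cd14 and C1qa held, and the combination call of Mmp9 was lost. The combination call of Cd14 held there but was lost with no filter, with arrays centred and with all probe sets of a gene averaged. Fibroblast genes fell at 3 of 9 in the same DMF179.2 samples, and 0 rose. Of all 10847 genes tested there, 27.4% were called, 1688 up and 1281 down. Of 8 gut epithelium genes 1 rose and 2 fell, with a mean level of 12.14, 12.21 and 12.26 under DMF179.2 and 12.30, 12.39 and 12.46 under vehicle. The part of these cells in the jejunal results was not tested.

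**Figure D4:**
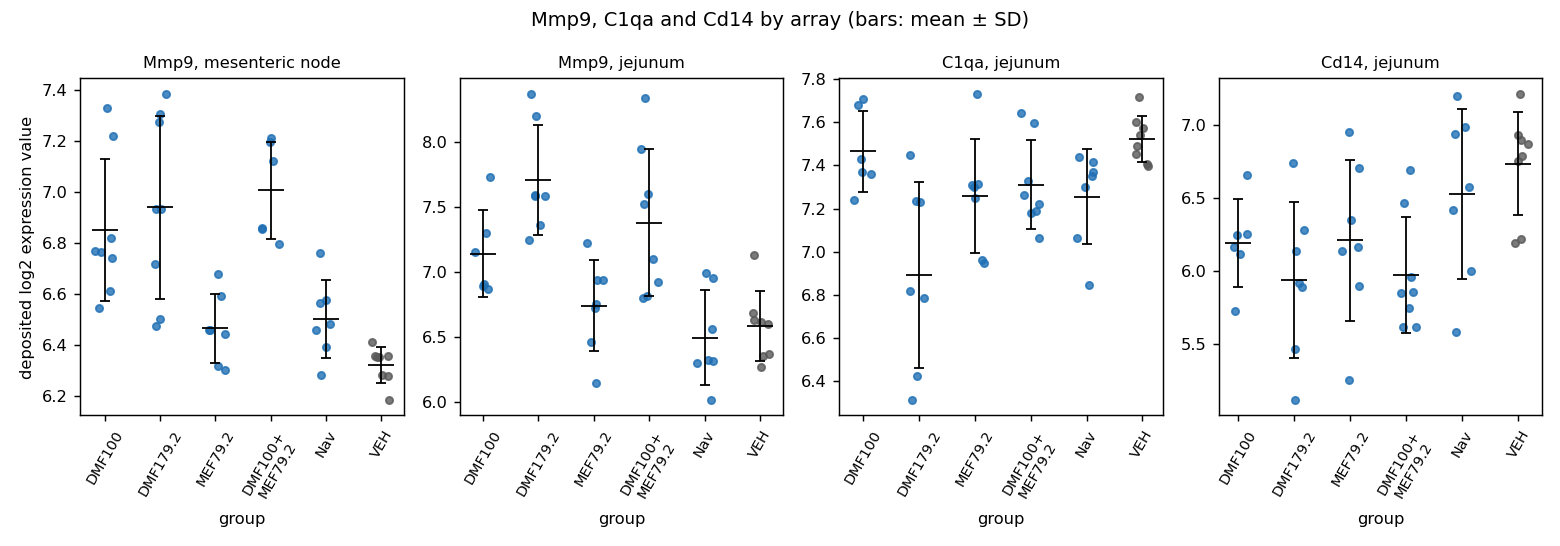
Deposited log2 value (vertical axis) in each array (points) of the 6 groups for Mmp9 in mesenteric node and for Mmp9, C1qa and Cd14 in jejunum, with bars for the mean ± SD. In jejunum the DMF179.2 points of Mmp9 start at 7.24, above the highest vehicle point at 7.13, and 6 of 7 C1qa points lie below the lowest vehicle point.

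Apart from Mmp9 and, in spleen, the receptor gene Cxcr2, no neutrophil member was called under a fumarate. S100a8 and S100a9, which pair into calprotectin, were not called under any fumarate in any of the 6 tissues where they were tested. In mesenteric node S100a9 had 5.40, 6.53 and 8.13 under DMF179.2 and 4.44, 5.36 and 6.36 under vehicle, with 5 of 8 DMF179.2 arrays above the vehicle range and a difference of 0.98 ± 0.46 (adjusted p = 0.173). In blood S100a8 had 12.55, 12.68 and 12.99 under DMF179.2 and 12.39, 12.72 and 13.19 under vehicle (-0.01 ± 0.15), and the S100a9 difference was -0.03 ± 0.12. The granule genes of immature neutrophils spread widely in blood. Camp, which encodes the antimicrobial peptide cathelicidin, had 2.97, 5.32 and 8.48 under DMF179.2 and 2.97, 3.0 and 4.15 under vehicle, and 4 of 8 DMF179.2 arrays lay above the vehicle range. The differences for Camp, Ngp and Ltf, 2.10 ± 0.86, 1.94 ± 0.81 and 1.56 ± 0.69, were large but not called (adjusted p = 0.206, 0.218 and 0.25). The filter stood at 3.38 in blood, so the median vehicle value of Camp lay below it, and the size of its difference is uncertain to that degree.

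Cxcr2, the chemokine receptor that draws neutrophils out of marrow, fell in spleen under DMF179.2 by 0.40 on the log2 scale (-0.40 ± 0.15, adjusted p = 0.0493). Its values were 4.61, 5.39 and 5.95 under DMF179.2 and 5.64, 5.72 and 6.14 under vehicle, and 7 of 8 DMF179.2 arrays lay below the vehicle range. The granule genes of spleen were not called. Their median difference over 8 genes was -0.57 with DMF100, 0.08 with DMF179.2, -0.46 with MEF79.2 and -0.32 with the combination.

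In mesenteric node S100a8 and S100a9 rose under Nav. S100a9 had 4.86, 6.61 and 10.12 under Nav and 4.44, 5.36 and 6.36 under vehicle, a difference of 1.39 ± 0.48 (adjusted p = 0.0148). S100a8 had 5.23, 6.47 and 9.38 under Nav and 5.04, 5.78 and 6.15 under vehicle, a difference of 0.97 ± 0.36 (adjusted p = 0.0242). Both highest values belong to the Nav array numbered 40. Without it, an alternative chosen after seeing these values, S100a9 stood at 0.84 ± 0.40 (adjusted p = 0.0823) and S100a8 at 0.52 ± 0.29 (0.138), and neither was called.

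Nav arrays numbered 40 stood apart in most tissues for the neutrophil members. In spleen the array was the highest of all 47 arrays in 10 of 10 tested neutrophil members, in blood in 6 of 9, in mesenteric node in 2 of 3, in inguinal node in 5 of 7, and in kidney and brain in 2 of 2. S100a9 reached 14 on it in spleen, against 11.74 to 12.88 on the other Nav arrays and 12.37 to 13.62 under vehicle. In kidney it reached 10.37, against 5.74 to 6.80 and 5.41 to 7.03, and in brain 10.16, against 6.10 to 7.26 and 6.24 to 7.51. In inguinal node it reached 13.18, against 7.84 to 11.35 on the other Nav arrays and 8.04 to 11.34 under vehicle. The labels do not say whether arrays with the same number come from the same animal.

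**Figure D5:**
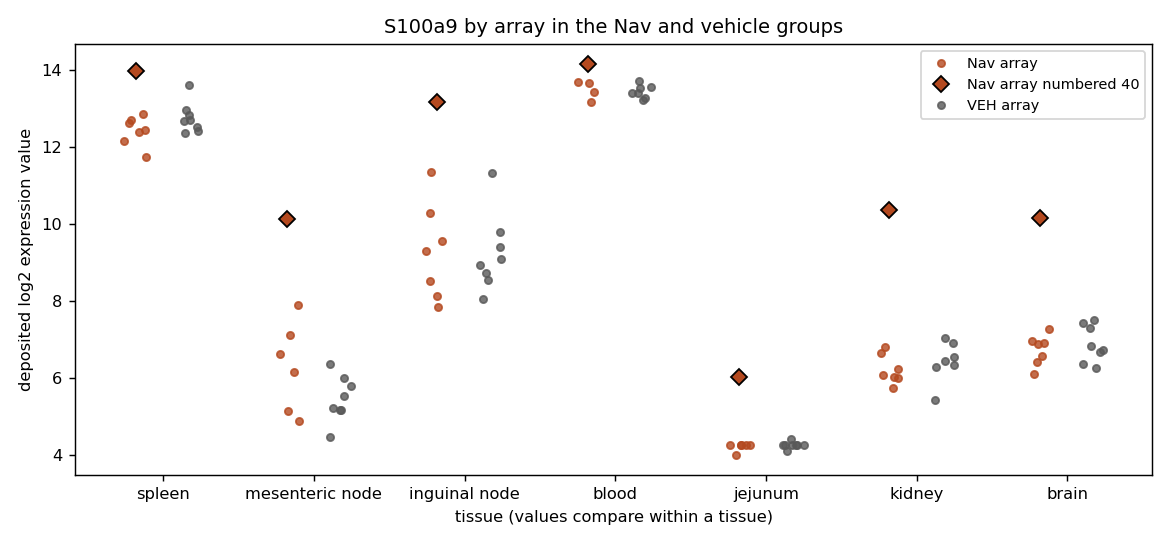
Deposited log2 value of S100a9 (vertical axis) in each Nav array (brown-red) and vehicle array (grey) of the 7 tissues (horizontal axis), with the Nav array numbered 40 drawn as a diamond. In all 7 tissues the diamond is the highest point of its tissue, and in kidney it stands at 10.37 where the highest vehicle point is 7.03.

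Leaving that array out changed the Nav results in spleen most. With it, Itgax, the integrin CD11c of dendritic cells and some macrophages, was the only member called, at 0.30 ± 0.10 (adjusted p = 0.044), with values of 9.42, 10.04 and 10.33 under Nav and 9.50, 9.64 and 9.99 under vehicle. Of the Nav arrays 5 of 8 lay above the vehicle range and 1 below it. Without the array there were 4 calls: Itgax rose by 0.38, and C1qa (-0.44, adjusted p = 0.00738), Cd163, the haemoglobin scavenger receptor (-0.51, 0.0223), and Mrc1 (-0.28, 0.0282) fell. In mesenteric node 5 calls were made without it and in jejunum, kidney and brain 1 each. The Nav arrays also differed in the hybridisation controls. In mesenteric node these averaged 11.89 under Nav and 11.71 under vehicle and did not overlap (11.7814 to 11.989 and 11.6505 to 11.7765). In kidney they averaged 12.01 under Nav and 11.82 under vehicle, and the ranges overlapped. With these controls as a covariate the mesenteric S100a8, S100a9 and Csf1r calls and the 3 kidney calls under Nav were lost.

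Of the other monocyte and macrophage genes, a list of 36 that holds none of the members, 30 were tested in mesenteric node. There 2 rose under DMF100, 7 rose and 1 fell under DMF179.2, 1 rose under MEF79.2, 10 rose under the combination, and 10 rose and 1 fell under Nav. Over all genes 1.85%, 7.88%, 4.75%, 12.7% and 50.6% were called in these contrasts, so the list's share under MEF79.2 and Nav was not above that of all genes. Clec4n, the fungal mannan receptor dectin-2, rose by 0.72 ± 0.11 under DMF100 (adjusted p = 6.85e-05), 0.70 ± 0.11 with DMF179.2 (8.76e-05), 0.37 ± 0.11 with MEF79.2 (0.0393) and 0.58 ± 0.11 with the combination (0.00181). Slc40a1, the iron exporter ferroportin, rose by 0.41 ± 0.11 under DMF100 (adjusted p = 0.0417), 0.62 ± 0.11 with DMF179.2 (0.000706) and 0.50 ± 0.12 with the combination (0.00784). Gpnmb, a glycoprotein of lipid-laden macrophages, fell under DMF179.2 (-0.51 ± 0.13, adjusted p = 0.0111).

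In inguinal node 2 of 31 genes of that list rose with DMF100, 2 with DMF179.2 and 1 with the combination (1.69%, 0.379% and 0.0474% of all genes called). Slc40a1 rose by 0.91 ± 0.19 under DMF179.2 (adjusted p = 0.0142) and 0.89 ± 0.18 under the combination (0.0221), and Slc11a1, the metal transporter of phagosomes, by 0.44 ± 0.12 under DMF100 (0.0383) and 0.66 ± 0.13 under DMF179.2 (0.00538). Ccl2, the chemokine that recruits monocytes, rose under DMF100 in both nodes, by 0.71 ± 0.14 in mesenteric (adjusted p = 0.00283) and 0.54 ± 0.14 in inguinal node (0.0354).

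In jejunum 6 of 22 genes of the list rose and 2 fell under DMF179.2, where 27.4% of all genes were called. Slc11a1 rose by 0.93 ± 0.18 (adjusted p = 0.00031) and Msr1, the class A scavenger receptor, by 0.58 ± 0.13 (0.00113), in the same samples in which C1qa and Cd14 fell. Csf2, which encodes the growth factor GM-CSF, rose by 1.28 ± 0.46 (adjusted p = 0.0337), while Ccl8, a monocyte chemokine, fell (-1.18 ± 0.44, 0.0433). In kidney Lgals3, which encodes galectin-3 and is made by macrophages and tubule cells, rose in all 5 groups, by 0.17 under Nav to 0.51 under DMF179.2. Kidney genes of the list were called up at 3, 6, 2, 8 and 6 of 18 and down at 0, 1, 1, 2 and 1 under DMF100, DMF179.2, MEF79.2, the combination and Nav, where 8.09%, 16.7%, 14.2%, 30.3% and 49.8% of all genes were called, a larger share than that of the list under Nav. In brain 1 of 16 rose under DMF179.2 (1.09% of all genes called), the microglial signalling adaptor Tyrobp, by 0.15 ± 0.04 (adjusted p = 0.0383).

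In spleen 1 of 28 genes of that list rose and 1 fell under DMF179.2, where 24.4% of all genes were called. Msr1 rose by 0.50 ± 0.16 (adjusted p = 0.0193) and Cx3cr1, the fractalkine receptor of patrolling monocytes, fell (-0.64 ± 0.20, 0.0186). Among 15 other dendritic cell genes of spleen 5 fell and 0 rose under DMF179.2. Of all 10549 genes tested, 1778 rose and 795 fell, so decreases were the smaller part of those 24.4%. The share of the list was not tested against that of all genes. Irf4, a factor of conventional dendritic cells and activated B cells, stood at -0.22 ± 0.06 (adjusted p = 0.0112). Wdfy4, needed for cross-presentation, stood at -0.20 ± 0.04 (0.00294). B cell genes of spleen fell at 4 of 12 in the same samples, where 795 of all 10549 genes fell. The mean level of the B cell genes was 11.37, 11.54 and 11.55 under DMF179.2 and 11.46, 11.61 and 11.67 under vehicle. Their part in the result was not tested.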

How the data were processed

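RNA of 308 samples from 7 mouse tissues was measured on Affymetrix HT MG-430 PM arrays. The deposited values are log2 expression values that the authors had normalized; RMA, GCRMA, R 2.11.1 and limma 3.4.5 are named in the submitters' processing notes, and their roles are not given in the sources used here. Each tissue had its own lowest value and near-equal array medians, so tissues were fitted apart.

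Groups were taken from sample titles. Of 45141 probe sets, 28898 carried 1 gene symbol, 551 several and 15692 none, and the probe set with the highest mean stood for each of 17097 genes. A gene was tested in a tissue where at least 5 arrays exceeded the 50th percentile of its values. The fumarate groups and Nav were compared with vehicle, and fumarate groups with each other, in limma 3.58.1 (R 4.3.3) with 1 mean per group and Benjamini-Hochberg adjustment over all genes tested, called under 0.05. The fit was tested on simulated data. The number of arrays limits precision.

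All members could be named. Values by group are given for members called in a tissue, and uncalled members and other lists follow a fixed rule of level or adjusted p. Members and lists were chosen with earlier results of these data known.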

Additional observations from a re-analysis of the deposited data

Results flagged for a closer look

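Among 192 groups of member values tested, 12 held an array far from the rest of its group, and chance alone gives about 1 in 20 groups. In spleen these were Cxcr2 on MEF79.2 array 30 (5.161), Nav array 40 (6.4508) and vehicle array 3 (6.1423), and Itgax on vehicle array 8 (9.9883). In mesenteric node they were Cd14 on DMF100 array 10 (7.8271) and MEF79.2 array 25 (6.7397), and S100a8 on DMF179.2 array 23 (7.8847). In inguinal node they were Tnfaip2 on MEF79.2 array 27 (6.0608), and Cd209g (4.1595) and Cd209f (6.5457) on vehicle array 3. In brain they were Lyz2 on MEF79.2 array 29 (7.6967) and Nav array 40 (9.15).

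The DMF179.2 response differed among 7 tissues for Lyz2 (F test in limma, adjusted p = 0.00196), Mpeg1 (0.00327) and Mrc1 (0.03). Of all genes in that test 34% passed. The Mpeg1 differences from vehicle ran from -0.08 in kidney to 0.45 in blood, those of Lyz2 from -0.13 in jejunum to 0.45 in brain, and those of Mrc1 from -0.16 in jejunum to 0.49 in blood. Mrc1 was low in blood, with a mean of 3.74 where the filter stood at 3.38, and its difference there was not called. Whether the Lyz2 probe set reads Lyz2 alone in jejunum was not tested. Among spleen, both nodes and blood the DMF179.2 response differed for Mmp9 (adjusted p = 0.00836) and Mpeg1 (0.0341), where 6.98% of all genes passed. The Mmp9 differences were 0.62 in mesenteric node, 0.51 in inguinal node, 0.06 in spleen and -0.53 in blood.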

How the results depend on the processing

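Of 52 called member differences, 12 kept their call under every alternative, 26 lost it under at least 1, and 14 kept it wherever they were tested but were removed by the filter at the 70th percentile, which left 28 of the 52 to test. None of those tested reversed. Lyz2 in brain, Mpeg1 in blood, and Cxcr2 and C1qa in spleen, all under DMF179.2, are among the 26. Tnfaip2 in spleen and blood, Cd209f in inguinal node and Mmp9 in jejunum, all under DMF179.2, are among the 12. Tnfaip2 in both nodes under DMF100 and DMF179.2, Cd209f and Mmp9 in mesenteric node, and Cd209g under DMF179.2 are among the 14. The lower counts at the 70th percentile below include such removed genes. The cause of the other changes was not tested. With the array of lowest correlation left out, members called were 1 in blood under DMF100 and 4 in spleen under Nav. With array weights they were 1 in blood under DMF100, 1 in brain under the combination and 1 against DMF100, 2 in brain and 5 in spleen under Nav, 4 and 6 in inguinal node under DMF100 and DMF179.2, 1 in mesenteric node under MEF79.2, and 2 in jejunum for DMF179.2 against DMF100. With arrays centred they were 0 in brain and 1 in kidney under Nav, 2 in inguinal node and 1 in jejunum under the combination, and 2 in kidney and 1 in spleen under DMF179.2. With a filter at the 70th percentile, DMF100 gave 0 in inguinal and 2 in mesenteric node, DMF179.2 gave 1 in inguinal node, 3 in mesenteric node and 0 in kidney, the combination gave 0 in inguinal node and kidney, 1 in jejunum and 3 in mesenteric node (0 against DMF100), and Nav gave 1 in kidney and 2 in spleen. With hybridisation controls as a covariate they were 1 in brain and 2 in kidney under DMF179.2, 2 in kidney under MEF79.2, 0 in inguinal node and 1 in jejunum under the combination, and 0 in kidney and 2 in spleen under Nav. Averaging all probe sets of a gene gave 1 in jejunum under the combination. With no filter, Nav gave 0 in brain and spleen and 1 in kidney, DMF100 gave 1 in inguinal node, the combination gave 1 in jejunum and 3 in kidney, and DMF179.2 and MEF79.2 gave 0 in kidney. With only the groups compared, DMF179.2 gave 1 in blood and brain, 0 in kidney, 0 in jejunum against DMF100 and 1 in spleen against the combination. DMF100 then gave 1 in inguinal node and kidney and 2 in mesenteric node, the combination 1 in jejunum, 3 in kidney and 2 in mesenteric node against DMF100, MEF79.2 2 in kidney and Nav 0 in spleen. Without Nav array 40, chosen after seeing the data, Nav gave 1 in jejunum and kidney and 4 in spleen. A repeated quantile normalization and a test of every probe set moved no count by over 1.5 times.

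Arrays of 1 number in different tissues correlated over 0.1 in 532 of 866 pairs. In every pair of tissues their median correlation exceeded that of arrays with different numbers. It was 0.23 against -0.04 for spleen and mesenteric node and 0.05 against -0.01 for blood and jejunum. The labels do not tie the numbers to animals, and the main fits did not pair samples by number. The main test among tissues thus took same-number arrays as independent. With the replicate block the test of a DMF179.2 response differing among tissues called 3 of 5 members in 7 tissues and 2 of 14 in 4 tissues, as without it, while over all genes it called 3425 with the block against 2667 without, and 1174 against 647. Within a tissue, groups share no number.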

Other observations

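Slfn4, a gene of neutrophils and monocytes that responds to interferon, is no member and fell under DMF in 3 tissues. In blood the differences from vehicle were -1.34 ± 0.30 under DMF100 (limma, adjusted p = 0.0413) and -1.36 ± 0.29 under DMF179.2 (0.0156). In spleen they were -1.52 ± 0.34 under DMF100 (adjusted p = 0.0116) and -1.22 ± 0.34 under DMF179.2 (0.00905), and in jejunum the DMF179.2 difference was -0.73 ± 0.18 (0.00267). Over all genes 0.26% and 1.34% were called in these blood contrasts, 0.834% and 24.4% in spleen and 27.4% in jejunum. In a list of other neutrophil genes, Slfn4 was the only call of 13 tested in blood and of 10 in spleen under these doses. In jejunum 1 of 6 rose and 2 fell, Slfn4 among them. In kidney Lcn2, which encodes the iron-binding neutrophil protein lipocalin-2 and is also made by injured tubules, rose by 1.31 ± 0.38 under DMF179.2 (adjusted p = 0.013). Under the combination it rose by 0.98 ± 0.38 (adjusted p = 0.0454). Over all genes 16.7% and 30.3% were called in these contrasts. Both groups also exceeded DMF100, by 1.47 ± 0.37 (adjusted p = 0.0288) and 1.14 ± 0.37 (0.0316).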
